A study of Mus musculus with 6 samples.

Results

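Genomic imprinting leaves a gene active on the chromosome inherited from a single parent, with the other copy silenced. Imprinted genes sit in clusters in which a stretch of DNA methylated in the egg or the sperm, the imprinting control region, decides which parental copy is read, often together with a long noncoding RNA made from the opposite copy. Many of these genes act on growth of the fetus and placenta, and several are known to be read in fibroblasts grown from mouse embryos. The 34 imprinted genes described here were listed by name and lie outside the domain of Cdkn1c. All 34 were found among the 25043 gene symbols of the expression table, and they held 104 of its 42361 RefSeq transcripts. Where a gene had several transcripts, the most abundant stands for it.

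RNA was sequenced from 3 cultures of wild-type (WT) mouse embryonic fibroblasts (MEFs) and 3 cultures of Anp32e null MEFs, which carry no functional copy of the gene for ANP32E, a chaperone that takes the histone variant H2A.Z off chromatin. All were primary cells below passage 8 grown in serum. How many embryos gave rise to the cultures of each genotype is not stated in the sources used here, so the spread between cultures may be technical. Total RNA was made into stranded libraries, and no allele was told apart, so parental origin below is background and was not measured.

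Levels are given as the mean normalized count, which is the authors' mean over the 6 libraries of both genotypes after scaling each library for depth, and a mean of this kind carries no error. The table holds no value for a named library, and its columns with the authors' own comparison of the genotypes were not used, so no level is compared between WT and Anp32e null cells and neither the spread within a genotype nor the loss of Anp32e could be checked. In bulk RNA, fewer cells of a type and less RNA per cell cannot be told apart.

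The cells were first checked against marker genes. A mean normalized count of 10 was reached by 74.10% of all autosomal genes with reads, so reaching it says little about cell type. Of 12 fibroblast markers, 11 reached 10 and 9 reached 1000. They were led by the intermediate filament gene Vim at 330695, the fibronectin gene Fn1 at 86443 and the matrix gene Fbln2 at 60443. The proteoglycan gene Lum stood at 1.331. All 5 mesothelial markers also reached 10, from 109.4 to 7400 for the keratin gene Krt19. None of 4 skeletal muscle markers and none of 3 trophoblast markers reached 10, and Myod1 and Tpbpa were listed at 0. Of the remaining lists, 1 of 4 epithelial, 1 of 4 endothelial, 2 of 4 macrophage, 1 of 4 neural and glial and 2 of 4 germ and pluripotent markers reached 10. The highest of each were, in this order, Cdh1 at 67.06, Kdr at 2958, Cd68 at 257.2, Tubb3 at 737.4 and Ddx4 at 99.54. Among the neural and glial markers, Snap25 was listed at 0. The part of cells with these markers in the levels of the imprinted genes was not tested.

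Several pairs among the 34 genes start close to each other or overlap, so that separate levels are measured from shared or neighbouring DNA. Peg3 and Usp29 are read in opposite directions from starts only 96 bases apart, at chr7:6730463-6730558 (GRCm38, which is mm10 in the authors' notes), in a gap that holds no annotated exon. Airn starts inside an intron of Igf2r, which is read from the opposite strand and starts within the span of Airn, so that the 2 genes share 28396 bases of chromosome 17. The gap between Peg3 and Usp29 and the 250 bases before the start of Airn and of Igf2r are shown 5′ to 3′ on the strand of Usp29, Airn and Igf2r, from RefSeq sequence of GRCm38, because these starts lie beside or within another gene of the list. Capitals mark CpG, a C followed by a G on the same strand, at which imprints are methylated.
Peg3-Usp29 gap, plus strand, chr7:6730463-6730558: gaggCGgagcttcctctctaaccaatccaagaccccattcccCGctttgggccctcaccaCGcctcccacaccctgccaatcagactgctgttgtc
Airn upstream, plus strand, chr17:12741061-12741310: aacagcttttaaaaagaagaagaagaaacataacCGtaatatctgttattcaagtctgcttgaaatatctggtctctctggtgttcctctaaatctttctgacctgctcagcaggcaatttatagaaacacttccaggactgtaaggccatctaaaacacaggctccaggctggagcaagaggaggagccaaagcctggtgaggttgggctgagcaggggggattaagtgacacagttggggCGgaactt
Igf2r upstream, minus strand, chr17:12769707-12769956: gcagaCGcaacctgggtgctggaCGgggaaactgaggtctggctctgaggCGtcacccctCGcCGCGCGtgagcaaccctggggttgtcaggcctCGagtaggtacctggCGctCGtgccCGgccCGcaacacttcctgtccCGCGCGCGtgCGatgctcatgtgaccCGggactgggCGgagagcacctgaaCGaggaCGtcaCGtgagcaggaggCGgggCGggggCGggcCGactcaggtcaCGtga

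The stretch before Igf2r held 27 CpG and that before Airn 2, beside a median of 6 over the same 250 bases of 32851 promoters. These stretches end at the start, so CpG after a start is not in the counts. The gap between Peg3 and Usp29 held 3 CpG in its 96 bases. Over windows of 300 bases around each start, 24 of the 28 imprinted genes with a window had at least 1 window above the median of 7 CpG, where 48.65% of all windows are above it. The windows ran from 0 CpG before Rian to 45 before a start of Grb10. CpG was searched for as the letters CG, which read the same on both strands. The 28 genes had 45 windows, and a gene with several windows has more chances of 1 above the median. The share of genes thus tends to exceed the share of windows, and they are not the same quantity.

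Some of the noncoding genes also hold microRNAs, short RNAs that act in their own right, and those of H19 and an example from Mirg are shown with the seed, bases 2 to 8, in capitals. H19 holds a single microRNA hairpin, and Mirg, a noncoding RNA of the Dlk1-Dio3 domain, holds 10 hairpins, among them that of miR-410. MicroRNAs themselves were not measured by these libraries.
mmu-miR-675-5p, in H19, chr7:142577112-142577133, minus strand: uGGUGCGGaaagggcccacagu
mmu-miR-675-3p, in H19, chr7:142577078-142577099, minus strand: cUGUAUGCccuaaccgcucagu
mmu-miR-410-5p, in Mirg, chr12:109743729-109743749, plus strand: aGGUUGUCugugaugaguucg
mmu-miR-410-3p, in Mirg, chr12:109743764-109743784, plus strand: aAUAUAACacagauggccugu

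All 34 genes had reads, and 29 of them (85.29%) reached a mean normalized count of 10, beside 74.10% of the 18581 autosomal genes with reads. The levels ranged from 61225 for Gnas to 0.3170 for Klf14. A mean of at least 1000 was reached by 12 genes, 11 stood from 100 to below 1000, 6 from 10 to below 100, and 5 below 2. For comparison, about 62.29% of autosomal genes with reads lay below a mean of 995.1, and about 40.03% below 99.54. The median of the 34 genes was 470.6, beside 359.7 over all autosomal genes with reads, and 19 of the 34 stood above that median gene. Counted per kb of transcript, the median of the 33 genes with a known length was 144.1 mean normalized counts per kb, beside 145.4 over all genes with a length, and 16 stood above it. As a list the imprinted genes thus lay near the middle of the genes of these cells, while single members spread over nearly the whole range.

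**Figure D1:**
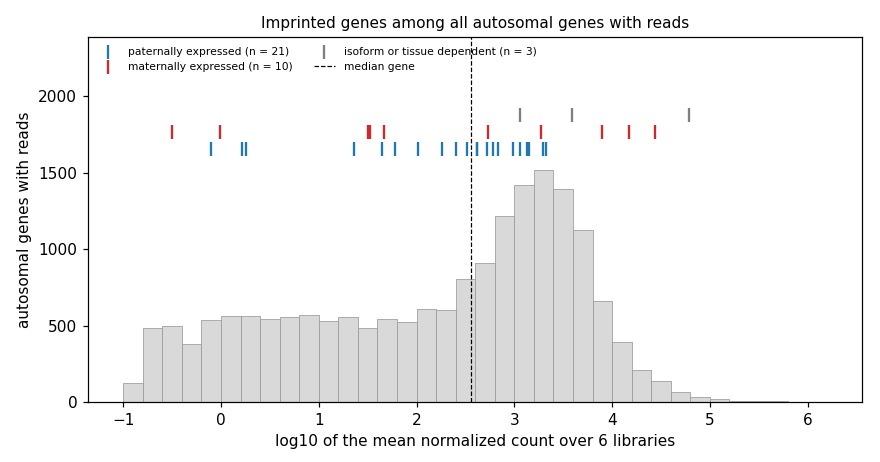
The histogram counts autosomal genes with reads by the log10 of their mean normalized count over the 6 libraries, and each coloured tick above it is an imprinted gene, in a row for each parental class. The dashed line marks the median gene at 359.7, and the ticks run from Klf14 at 0.3170 to Gnas at 61225.

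By the parental copy that textbooks give as active, the 21 paternally expressed genes had a median mean normalized count of 414.5, with a range from 0.7815 to 2122, and 18 of them reached 10. The 10 maternally expressed genes had a median of 291.3, with a wider range from 0.3170 to 27253, and 8 of them reached 10. The classes are coarse, since the active copy of genes kept in them, such as Grb10, can also differ by tissue or isoform. The other 3 genes, Gnas, Ube3a and Inpp5f, were left out of both classes because their active copy depends on the isoform or the tissue. With these 3 counted by their best known active copy, the medians were 416.8 for paternally and 1200 for maternally expressed genes, so that the order of the medians turned. The highest levels of all were found outside the paternally expressed genes, in Gnas, Grb10, H19, Igf2r and Ube3a. Per kb the medians were 143.8 mean normalized counts per kb for the 21 paternally expressed genes and 24.68 for the 9 maternally expressed genes with a length. These are descriptions of 2 lists and were not tested.

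**Figure D2:**
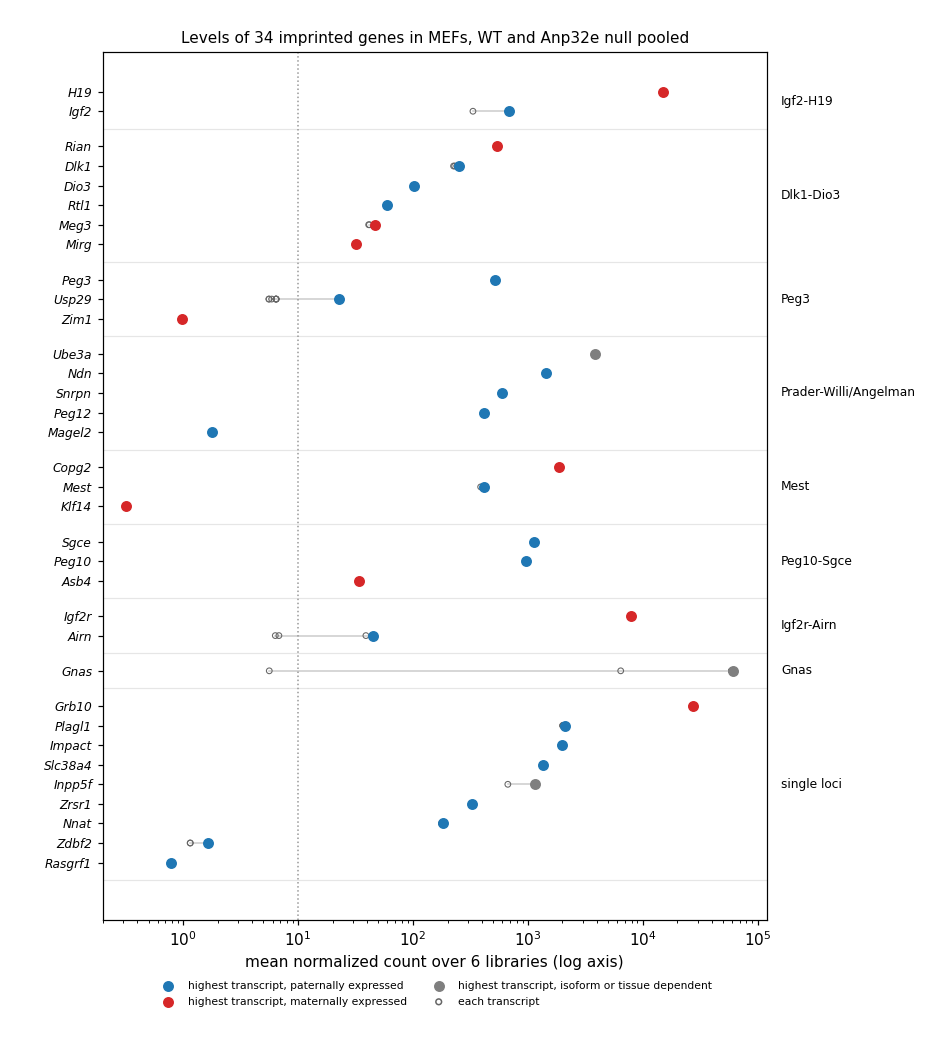
Each row is an imprinted gene, grouped by domain, and the horizontal log axis gives the mean normalized count over 6 libraries. Filled points are the highest transcript of a gene, coloured by parental class, open points are its other transcripts, and the dotted line marks a mean of 10; 5 genes lie left of it, and Gnas spans from 5.618 to 61225.

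The domain of Igf2 and H19 on chromosome 7 holds a growth factor and a noncoding RNA that share enhancers. H19 (chr7:142575530-142578146), the maternally expressed noncoding RNA, was listed with a mean normalized count of 14954 on both of its transcripts, above 97.20% of autosomal genes with reads. Igf2 (chr7:142650768-142666816), the paternally expressed insulin-like growth factor, stood at 679.0. Per kb, H19 had 6542 and Igf2 143.8 mean normalized counts per kb, a ratio of 45.49. These values per kb use the longest of the transcripts near the highest level, and an Igf2 transcript of 650 bases with a mean of 675.9 had 1040 per kb. Of the 5 Igf2 transcripts, 4 lay between 675.3 and 679.0 and the remaining transcript at 332.9. Since transcripts that overlap carry the same reads, the near-equal values are not separate measurements.

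The receptor that clears IGF2 from the cell surface, Igf2r, was the fourth of the 34 genes by level. Igf2r (chr17:12682406-12769706), which is maternally expressed, stood at a mean normalized count of 7855, above 93.62% of genes. Airn (chr17:12741311-12859884), the paternally expressed antisense RNA known for silencing Igf2r in cis, stood at 44.84. Airn had 4 transcripts, at 44.84, 38.95, 6.814 and 6.340. The highest has no length in the annotation used, so the value per kb of Airn comes from the transcript at 38.95, with 1113 bases. These are bases of annotated exons, a small part of the span of Airn, so the values do not give the level of unspliced Airn RNA. Per kb the values were 883.9 for Igf2r and 35.00 for that transcript of Airn, a ratio of 25.26. Whether the authors counted reads by strand is not stated, so reads of Airn that lie on exons of Igf2r, and the reverse, cannot be told apart.

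Grb10, an adaptor protein that restrains signalling from insulin and IGF receptors, was the highest single-locus gene. Grb10 (chr11:11930499-12037428) reached a mean normalized count of 27253, above 98.74% of genes, and its 3 transcripts lay between 26803 and 27253. Per kb it stood at 5384, below H19 at 6542 and above Igf2r at 883.9.

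Gnas (chr2:174284320-174346744), which encodes the stimulatory G protein alpha subunit and related proteins from alternative first exons, was the highest of the 34 genes. Of its 12 transcripts, 10 lay between 59454 and 61225. A further transcript stood at 6433, and a transcript of 2 exons at 5.618, so that the highest transcript was 10898 times the lowest. Reads on shared exons are counted for each transcript that holds them, so the 10 high values do not separate the isoforms that are imprinted from those that are not. The 2-exon transcript was recovered for the single libraries, and it had 6, 3, 14, 1, 3 and 7 reads in libraries A to F, which are defined below where those values are given together.

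The Dlk1-Dio3 domain on chromosome 12 joins 3 paternally expressed coding genes with 3 maternally expressed noncoding RNAs, and all 6 reached a mean of 10. The noncoding RNA Rian led with a mean normalized count of 536.1, and it has no length in the annotation used. Dlk1, a transmembrane protein related to the Notch ligands, stood at 253.4, with 5 transcripts between 225.8 and 253.4. Dio3, the deiodinase that inactivates thyroid hormone, stood at 102.9. Rtl1, a gene derived from a retrotransposon, stood at 59.94, Meg3 at 46.55 and Mirg, the host of miR-410 shown above, at 32.08.

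Rian was thus 11.52 times Meg3 and 16.71 times Mirg by mean normalized count, which is not corrected for length. Per kb the coding genes ran from 54.46 for Dlk1 and 50.68 for Dio3 to 9.428 for Rtl1. Shorter Dlk1 transcripts had higher values, such as 148.5 per kb for a transcript of 1703 bases with a mean of 252.9. Mirg stood at 24.68 per kb. Meg3 stood at 3.200 per kb on its longest transcript of 14548 bases, and its shorter transcripts, with means of 41.77 and 41.19, stood at 21.01 and 21.73 per kb. The order of Meg3 and Rtl1 per kb therefore depended on which Meg3 transcript was taken. Meg3 and Rtl1 overlap by 6830 bases and Rian and Rtl1 by 474 bases, so reads there cannot be told apart without strand.

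In the Peg3 domain on chromosome 7, the zinc finger gene Peg3, known for its part in maternal behaviour and growth, stood at a mean normalized count of 522.1. Usp29, a ubiquitin-specific protease gene that starts 96 bases away across the gap printed above, stood at 22.82 on a noncoding transcript and at 6.438 on its coding transcripts. Per kb, Peg3 had 60.05 and Usp29 5.249, a ratio of 11.44. The zinc finger gene Zim1, which is maternally expressed, stood at 0.9860. The genes on the sides of this start region thus had unequal levels.

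In the Prader-Willi and Angelman region on chromosome 7, 4 of 5 genes reached 10. Ube3a, a ubiquitin ligase whose maternal copy alone is active in neurons, stood at a mean normalized count of 3877. Ndn, the necdin gene, stood at 1426, Snrpn, which encodes a spliceosome protein, at 600.2 and Peg12 at 414.5. Magel2, a regulator of ubiquitin ligases that lies beside Ndn, stood at 1.798. Per kb, Ndn had 386.0 and Magel2 0.3883, a ratio of 994.0 between neighbouring genes that are both paternally expressed. Magel2 rested on 11 reads, 8 of them in library C of those recovered below, and without C its mean normalized count was 0.6004. Snrpn had 9 transcripts that lay between 599.4 and 600.2.

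In the Mest domain on chromosome 6, the coatomer gene Copg2 stood at a mean normalized count of 1865 and the hydrolase gene Mest at 419.1. Per kb they had 469.8 and 157.2, a ratio of 2.988. The ends of the genes overlap by 913 bases, in which reads cannot be assigned without strand. Klf14, a maternally expressed transcription factor of the same domain, was the lowest of the 34 genes at 0.3170, which came from 2 reads in a single library.

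The Peg10-Sgce domain, also on chromosome 6, holds a pair of paternally expressed genes with starts 101 bases apart. Sgce, the epsilon-sarcoglycan gene, stood at a mean normalized count of 1142 and Peg10, a placental gene derived from a retrotransposon, at 960.4. Per kb, Sgce had 643.0 and Peg10 144.1, so that the near-equal means became a ratio of 4.464 once the lengths of 1776 and 6667 bases were taken into account. Asb4, a maternally expressed gene for an adaptor of ubiquitin ligases, stood at 33.59 and had 10.22 per kb, and Sgce was 62.90 times higher per kb.

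Of the 8 genes at single loci other than Grb10, 6 reached 10. Plagl1, a zinc finger factor known for regulating other imprinted genes, stood at a mean normalized count of 2122, Impact, an inhibitor of the stress kinase GCN2, at 1970 and the amino acid transporter gene Slc38a4 at 1346. Inpp5f, an inositol phosphatase gene, stood at 1146, and its other transcript at 669.9. Zrsr1, a splicing factor gene that arose as a retrocopy, stood at 328.7 and Nnat, the neuronatin gene, at 181.5. Zdbf2 stood at 1.638 and Rasgrf1, an exchange factor for Ras, at 0.7815. No error is known for these means, so it cannot be said which neighbours in the order of levels differ beyond their spread.

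Of the 10 genes highest by mean normalized count, 9 were also among the 10 highest per kb. The gene that dropped out was Slc38a4, at 342.2 per kb, and Sgce took its place. The order of the 4 highest per kb was Gnas at 15687, H19 at 6542, Grb10 at 5384 and Igf2r at 883.9. At the other end Klf14 had 0.1037, Zim1 0.1282, Zdbf2 0.1297, Rasgrf1 0.1910 and Magel2 0.3883 mean normalized counts per kb. A Rasgrf1 transcript of 853 bases with the same mean had 0.9162 per kb, so the order of Rasgrf1 and Magel2 depended on the transcript taken.

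The values of single libraries could be recovered for the low genes. A mean is the sum of the whole reads of 6 libraries, each multiplied by a fixed step, and the table prints enough digits for most means below 60 to be split into whole reads in a single way. Of 1228 autosomal genes with means from 20 to below 60, 1 could be split in more than 1 way. A single way was found for all 31 imprinted transcripts below 60, which came from 12 genes and were the highest transcript of 11 of them. The libraries are named A to F in order of falling size factor, from 1.131 for A to 0.9089 for F. The column used does not say which of them are WT and which Anp32e null. Over the other 1227 of these autosomal genes, A, B and D deviated together and C, E and F together; neither set was tied to a genotype, and the sets are not compared here. Counts of single reads carry counting error, and 0 reads allow a count of up to 3.

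Meg3 had 85 reads in library A, 59 in B, 57 in C, 43 in D, 17 in E and 28 in F. After scaling, the values ran from 18.17 in E to 75.17 in A with a median of 49.53, and the highest was 4.137 times the lowest. Mirg, from the same strand of the same domain, had 57, 43, 19, 39, 26 and 14 reads in A to F, and its scaled values ran from 15.40 in F to 50.41 in A. Both RNAs were highest in A. The lowest library of Meg3 depended on the transcript, since its other transcripts were lowest in F, as Mirg was.

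Rtl1, on the opposite strand of this domain, had 61, 84, 39, 79, 70 and 30 reads in A to F. Its scaled values ran from 33.01 in F to 80.04 in D, a ratio of 2.425. Library B at 79.89 lay next to D, and C at 37.96 lay next to F. Library F was thus lowest for Rtl1, as for Mirg.

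Airn had 44, 33, 66, 29, 52 and 45 reads in A to F. Its scaled values ran from 29.38 in D to 64.25 in C with a median of 44.21. The ratio of 2.187 was the smallest among the 6 genes with recovered reads and a mean of at least 10. Its second transcript had 41, 32, 57, 17, 45 and 42 reads, also highest in C and lowest in D. Transcripts that overlap can carry the same reads, so this is not a separate measurement. The 2 low transcripts differed. The transcript at 6.814 was highest in B at 11.41 and lowest in D at 1.013. The transcript at 6.340 was highest in A at 11.50 and lowest in F at 1.100.

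Asb4 had 13 reads in A, 10 in B, 52 in C, 17 in D, 55 in E and 49 in F. The scaled values were 11.50, 9.510, 50.62, 17.22, 58.79 and 53.91 in A to F. Library E was highest and B lowest, and the highest was 6.182 times the lowest.

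Usp29 had 5, 1, 60, 6, 36 and 26 reads in A to F on its noncoding transcript. Library C alone held 44.78% of the 134 reads and B held a single read, so the ratio of 61.41 between them rests on 1 read. A and D held few reads as well, and without B the ratio was 13.21. Its coding transcript had 1, 1, 20, 0, 9 and 7 reads, and C held 52.63% of them.

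Among the 1227 genes of similar level, the highest library was 2.610 times the lowest at the median and 7.975 times at the 90th percentile. Airn stood at the 34.39th percentile of this ratio and Rtl1 at the 43.19th, below the median gene. Mirg at 3.273 stood at the 65.04th, Meg3 at the 76.69th, Asb4 at the 87.12th and Usp29 at the 97.56th. For Meg3 and Airn this place depended on the transcript: the other Meg3 transcripts had ratios of 2.272 and 2.122, below the median gene, and the second Airn transcript had 3.222, above it. This ratio mixes spread between and within genotypes.

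**Figure D3:**
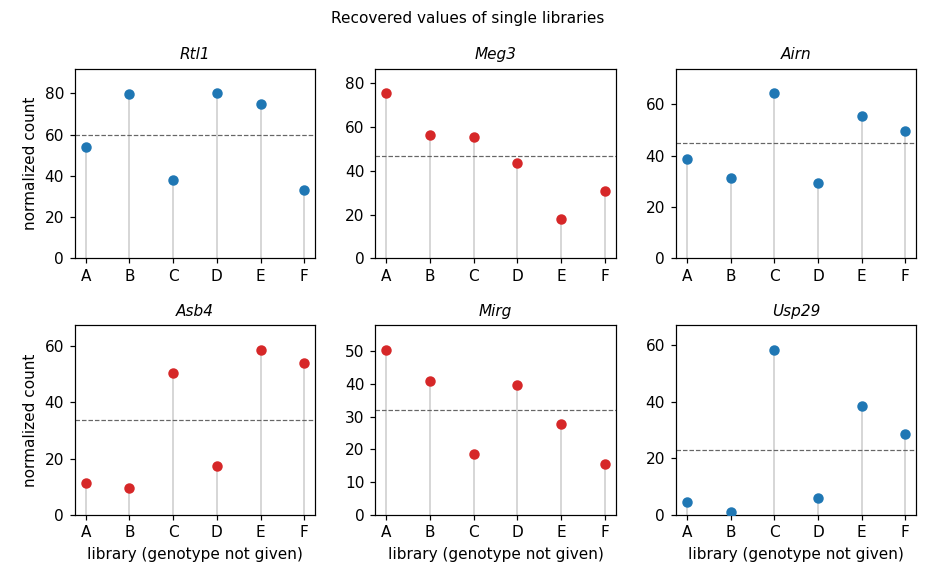
Each panel shows an imprinted gene with a mean from 10 to below 60, with the normalized count on the vertical axis, which starts at 0, the 6 libraries A to F on the horizontal axis, and a dashed line at the mean. Points are single libraries with no genotype assigned; Usp29 runs from 0.9510 in B to 58.41 in C, while Airn runs from 29.38 in D to 64.25 in C.

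The 5 genes below a mean of 2 rested on few reads. Magel2 had 11 reads in all, of which 8 were in library C, 2 in B and 1 in F. Zdbf2 had 10, of which 9 were in C and 1 in E. Zim1 had 6, with 2 each in A, C and F, and Rasgrf1 had 5, with 3 in C and 2 in A. Klf14 had 2 reads, both in B. Without library C the mean normalized count of Zdbf2 was 0.2138 and that of Rasgrf1 0.3537. For Magel2 and Zdbf2 a single library thus supplied 8 of 11 and 9 of 10 reads, and a level of these genes in the other libraries was not detectable at this depth beyond the few reads given.

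For context, 33 of 34 further imprinted genes on a list that also holds Cdkn1c were found in the table, 21 of them at a mean of at least 10, with a median of 177.3. The highest were Cd81, a tetraspanin gene, at a mean normalized count of 26400, H13, a signal peptide peptidase gene, at 9194 and Commd1, a gene for copper handling, at 2995, and 5 were listed at 0. Of 20 genes for proteins that set, keep or erase imprints, 17 reached 10. The highest were Trim28, the corepressor that zinc finger proteins bring to imprinting control regions, at 28261, the maintenance methyltransferase gene Dnmt1 at 21312 and its partner Uhrf1 at 13663. Beside these, 29 of the 34 imprinted genes described here reached 10, with a median of 470.6. Among all autosomal genes with reads, 74.10% reached 10.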

How the data were processed

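RNA-seq of 3 WT and 3 Anp32e null MEF cultures was analysed. Per the labels and the study's methods, the authors aligned reads to mm10 with STAR, counted them with featureCounts of Subread and normalized them with DESeq2; versions and the use of strand are not given in the sources used here. The deposited table lists RefSeq transcripts with the authors' mean normalized signal over the 6 libraries, scaled by size factors. It holds 5 further columns with the authors' own comparison of the genotypes (fold change, its error, statistic and p-values). These were not used, so no test was run and no value by genotype is given.

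Transcripts were matched to symbols with RefSeq GRCm38 tables (42203 of 42361). A gene took its highest transcript. Lengths came from GENCODE M21, as the longest among transcripts within 5% of the highest mean of those with a length, with 83.37% of transcripts paired. Transcripts share reads. Means below 60 were split into whole reads of 6 libraries; tested on 600 simulated means, all 600 gave the true reads. Total depth per library is unknown. Python 3.11.15, numpy 2.4.6, pandas 2.3.3 and numba 0.67.0 were used.

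All 34 genes are given; of other lists at most the 3 highest of each list, plus marker genes at 0 and Lum, which were chosen after their values were seen. Parental copies and domains are textbook knowledge. The genes and lists were chosen with earlier results of these data known. Alternatives were the minimum mean, the transcript taken, the genes ranked against, the parental classes, the length correction and leaving out each library.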

Additional observations from a re-analysis of the deposited data

How the results depend on the processing

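With a minimum mean normalized count of 1 in place of 10, 31 of the 34 genes were counted, with 50 it was 24, and with the median over transcripts 28, each within 1.5 times the 29 given. The median level of 470.6 became 470.2 with the median transcript and 360.7 with the lowest transcript. The median percentile of 52.49 became 52.76 with X and Y genes kept, 49.91 per kb and 35.88 among genes with a mean of at least 10. With Gnas, Ube3a and Inpp5f counted in the class of their best known active copy, the median of the paternally expressed genes was 416.8 and that of the maternally expressed genes 1200, in place of 414.5 and 291.3, which turns the order of the 2 medians. Of the 10 highest genes, 9 stayed among the 10 highest per kb. The median ratio of highest to lowest library was 3.705 over the 6 genes with recovered reads and a mean of at least 10. This median lay between 2.856 and 3.705 when each library was left out in turn. Without library C the mean of Magel2 fell from 1.798 to 0.6004. Without library B the ratio of Usp29 fell from 61.41 to 13.21. No paired analysis was possible because the table holds no values by named library. Means carry no error, so any move in the printed digits is given as a move. Depth limits the 5 genes below a mean of 2, which had 2 to 11 reads over all libraries.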

Other observations

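The 6 libraries recovered from the table fell into 2 sets of 3 over the 1227 autosomal genes with means from 20 to below 60. The deviations of a library from the gene's mean on the log2 scale were correlated across genes at r = 0.69 for A and B, 0.67 for A and D, and 0.64 for B and D. They were correlated at 0.57 for C and E, 0.56 for C and F, and 0.60 for E and F. Across the sets r lay between -0.77 and -0.71. Deviations from a common mean sum to about 0, which by itself makes some of these values negative, and genes are not independent replicates. The size factors were 1.131, 1.052 and 0.9870 for A, B and D and 1.027, 0.9355 and 0.9089 for C, E and F. No set was given a genotype, since the labels and the column used tie no library to a culture and the columns of the authors' comparison were not used.

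Library E was the lowest of the 6 in 20.37% of the 1227 genes and library F the highest in 18.74%. All other shares of highest or lowest lay between 14.26% and 17.44%.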
